A study of Mus musculus with 9 samples.

Results

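The S100 alarmins and antimicrobial proteins described here are 10 genes, *S100a8*, *S100a9*, *S100a4*, *S100a6*, *S100a10*, *S100a11*, *Lcn2*, *Camp*, *Slpi* and *Saa3*, out of 54059 genes with a deposited value in each of 9 libraries of mouse peritoneal macrophages. They were chosen by name, for their known roles and with earlier results of these data known, and matched by Ensembl identifier to GENCODE M21. A mean FPKM of at least 1 was reached by 9 of the 10, which were tested among 11450 such genes. *S100a9* did not reach that level.

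RNA was sequenced from macrophages of C57BL/6 mice aged 8 weeks in 3 groups of 3 libraries, to ask how loss or inhibition of the phosphatase SHP2, encoded by *Ptpn11*, alters the response to imiquimod (IMQ), a TLR7 agonist. The wild-type group and the M-*Shp2*-/- group were stimulated with IMQ for 4 h, and the SHP099 group was made of wild-type cells given 10 µM SHP099, an allosteric SHP2 inhibitor, for 2 h before IMQ at 10 µg/ml for 4 h. M-*Shp2*-/- mice carry floxed *Shp2* and *Lyz2*-cre, which deletes the gene in monocytes, mature macrophages and granulocytes. The cells were washed from the peritoneum 3 days after an injection of starch broth and selected by adherence. The sample titles name SHP099 for its 3 libraries, while IMQ, the doses and the times are given by the text of the study and not by the labels. All 3 groups received IMQ, so that no library shows the genes without stimulation. The depth, recovered from the steps of the FPKM values (fragments scaled by transcript length and depth), was 39843254 to 50981216 reads a library. The labels do not say that the 3 libraries of a group came from separate mice, and p-values measure only the spread between these libraries.

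S100 proteins are small calcium-binding proteins. S100A8 and S100A9 form calprotectin, which binds zinc and manganese needed by microbes and signals danger when released, whereas S100A10 and S100A11 bind annexins at membranes. Lipocalin 2 (*Lcn2*) binds bacterial siderophores, cathelicidin (*Camp*) disrupts microbial membranes, SLPI inhibits serine proteases, and SAA3 is an acute-phase protein made outside the liver.

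The 6 S100 members lie on chromosome 3, *Lcn2* and *Slpi* on chromosome 2, *Saa3* on chromosome 7 and *Camp* on chromosome 9. *S100a8* and *S100a9* lie close together and are usually expressed as a pair, but had very different levels here, and *S100a11* and *Saa3* differed in opposite directions between the SHP099 and wild-type means. The bases before the start of these 4 genes are therefore shown. They were taken from RefSeq (GRCm38.p6), where 9 of the 10 genes had an entry, 5′ to 3′ on the strand of each gene, and without bases that GENCODE M21 places in an exon of the gene. The regions are chr3:90668821-90668977 (plus strand), chr3:90695722-90695971 (minus strand), chr3:93520246-93520487 (plus strand) and chr7:46715701-46715926 (minus strand). Capitals mark matches to a C/EBP motif (TTGCNNAA) or an AP-1 motif (TGANTCA).
S100a8: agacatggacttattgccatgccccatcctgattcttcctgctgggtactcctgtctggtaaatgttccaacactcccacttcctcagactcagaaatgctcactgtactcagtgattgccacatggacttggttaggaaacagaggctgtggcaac
S100a9: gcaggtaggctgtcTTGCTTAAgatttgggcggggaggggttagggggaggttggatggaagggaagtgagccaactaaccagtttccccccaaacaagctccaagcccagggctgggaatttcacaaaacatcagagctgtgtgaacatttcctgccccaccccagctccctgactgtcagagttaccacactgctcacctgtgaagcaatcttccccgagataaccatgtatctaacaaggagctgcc
S100a11: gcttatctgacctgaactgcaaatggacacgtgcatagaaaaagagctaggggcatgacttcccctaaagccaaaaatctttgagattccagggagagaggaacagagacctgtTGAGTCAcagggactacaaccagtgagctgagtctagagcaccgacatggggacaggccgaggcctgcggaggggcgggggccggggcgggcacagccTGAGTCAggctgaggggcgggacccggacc
Saa3: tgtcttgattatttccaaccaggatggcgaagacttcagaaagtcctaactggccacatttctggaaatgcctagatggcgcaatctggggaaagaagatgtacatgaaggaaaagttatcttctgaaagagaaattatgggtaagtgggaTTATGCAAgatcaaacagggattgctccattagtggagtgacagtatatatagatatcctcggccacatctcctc
The 4 motifs were searched on both strands of the 250 bases before each start. The C/EBP motif was in the windows of *S100a9*, *Lcn2*, *Slpi* and *Saa3* and in 9.56% of all 32851 windows of this length. The AP-1 motif occurred at 2 places in the *S100a11* window, 136 and 38 bases before the start, and in 6.75% of all windows. A STAT motif (TTCNNNGAA, in 7.02% of windows) and the NF-κB consensus (in 3.9%) were in none of the 9 windows. These matches describe letters only.

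The target gene was examined first. *Ptpn11* had FPKM values of 45.8, 44.0 and 39.99 in the wild-type libraries, 18.6, 17.8 and 18.9 in the M-*Shp2*-/- libraries, and 43.0, 42.1 and 39.6 in the SHP099 libraries. All 3 M-*Shp2*-/- libraries lay below the other 6, as their labels require, and RNA of the gene was still present (log2 fold change -1.19, SE 0.10, limma adjusted p = 0.0168). The inhibitor acts on the protein, and the level in the SHP099 libraries overlapped the wild-type level. Macrophage genes were abundant, with *Cd68* at 1211 to 1740 and *Adgre1* at 172 to 349 FPKM over the 9 libraries. *Gata6*, a factor of resident peritoneal macrophages, was at most 2.97 FPKM.

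M-*Shp2*-/- replicate 3 stood apart from its group. Its log2 values correlated with the other M-*Shp2*-/- libraries at 0.954 and 0.967, against 0.992 between these. Genes of fibroblasts also differed between libraries within each group. The summed FPKM of 6 fibroblast genes, led by *Col1a1*, was 63.8, 303 and 39.8 in wild-type replicates 1, 2 and 3, 135, 51.4 and 586 in the M-*Shp2*-/- replicates, and 361, 137 and 101 in the SHP099 replicates. In bulk RNA, fewer cells of a type and less RNA per cell cannot be told apart.

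The calprotectin genes are described first. *S100a8* had FPKM values of 34.5, 91.3 and 55.6 in the wild-type libraries, 37.4, 36.1 and 95.4 in the M-*Shp2*-/- libraries, and 48.5, 53.1 and 72.8 in the SHP099 libraries. The 3 groups overlapped, and the highest values were those of wild-type replicate 2 and M-*Shp2*-/- replicate 3. *S100a9* had values of 0.611, 0.988 and 0.273 in the wild-type, 0.269, 0 and 1.11 in the M-*Shp2*-/- and 0, 0.0486 and 0 in the SHP099 libraries. *S100a9* was thus far below its partner everywhere, by 56.5 to 203 times per length in the 5 libraries with at least 3 *S100a9* reads. The *S100a8* values rest on 731 to 2289 recovered reads in a library and the *S100a9* values on 0 to 26, where 3 reads would correspond to 0.114 to 0.146 FPKM.

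All 3 SHP099 libraries lay below all 3 wild-type libraries for *S100a9*. They held 1 *S100a9* read in all, against 46 in the wild-type and 32 in the M-*Shp2*-/- libraries. Per read sequenced, the ratio of SHP099 to wild type was 0.0235, with a 95% interval for counting error alone of 0.000582 to 0.138. With no filter on low values, limma gave a log2 fold change of -0.65 (SE 0.17, adjusted p = 0.163), so that the difference did not pass the test. For *S100a8*, the log2 fold change was -0.14 (SE 0.47) in M-*Shp2*-/- and 0.03 (SE 0.33) in SHP099 against wild type, with limma adjusted p of 0.887 and 0.967. The sign of the SHP099 value turned with median-of-ratios scaling (-0.11).

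**Figure D1:**
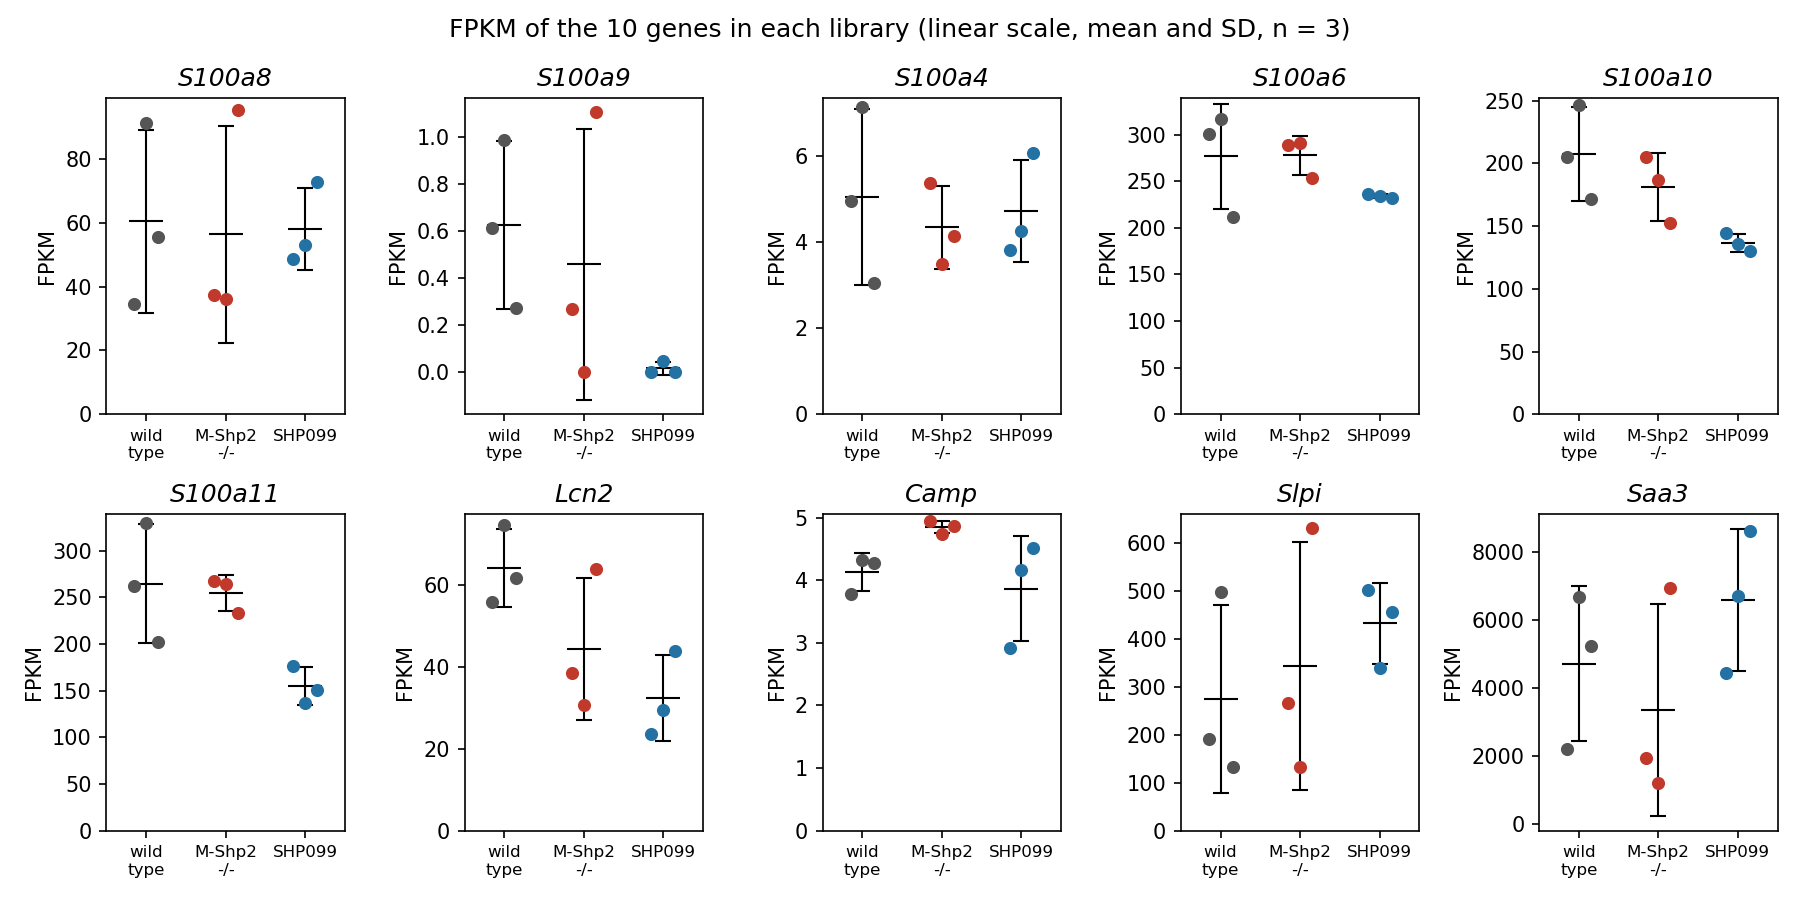
FPKM (linear y axis) of the 10 genes in the wild-type, M-*Shp2*-/- and SHP099 libraries, with 1 point a library and the mean and SD of each group (n = 3). The SHP099 points lie below all wild-type points for *S100a9*, *S100a10*, *S100a11* and *Lcn2*, and the groups overlap for *S100a8*, *Slpi* and *Saa3*.

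*S100a8*, *S100a9* and *Camp* are abundant in neutrophils, and neutrophil genes were read beside them. Of 18 neutrophil genes, 14 were below 1 FPKM in every library. The 2 most abundant were *Csf3r*, at 51.5 to 94.2, and *Mmp9*, at 8.23 to 56.5, which are not among the 12 defining genes of the list since macrophages can express them. *Ly6g*, the usual surface marker, was 0 in 7 libraries and at most 0.0362 in the others, and *Mpo* and *Elane* of the azurophil granule were at most 0.0338 and 0.12. *Prtn3* reached 0.666 in M-*Shp2*-/- replicate 3, the library with the most *S100a8*. Of 12 defining genes, 10 were below 1 FPKM in every library while *S100a8* was at 34.5 FPKM or more. The exceptions among the 12 were *Mmp8*, at 2.80 to 10.4, and *Stfa3*, at 1.00 to 24.3 with its highest value in M-*Shp2*-/- replicate 3. The summed FPKM of the 12 genes was 8.62, 17.6 and 8.46 in wild-type, 12.1, 9.32 and 31.5 in M-*Shp2*-/- and 18.9, 10.6 and 19.7 in SHP099 libraries. In each of the 3 groups this sum was highest in the library where *S100a8* was highest. The sum of all 18 genes was 127, 117 and 124 in wild-type, 88.1, 79.1 and 160 in M-*Shp2*-/- and 82.9, 80.2 and 103 in SHP099 libraries, and was not highest in that library in wild type. The part of cells expressing *Stfa3* or *Mmp8* in the *S100a8* level was not tested.

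**Figure D2:**
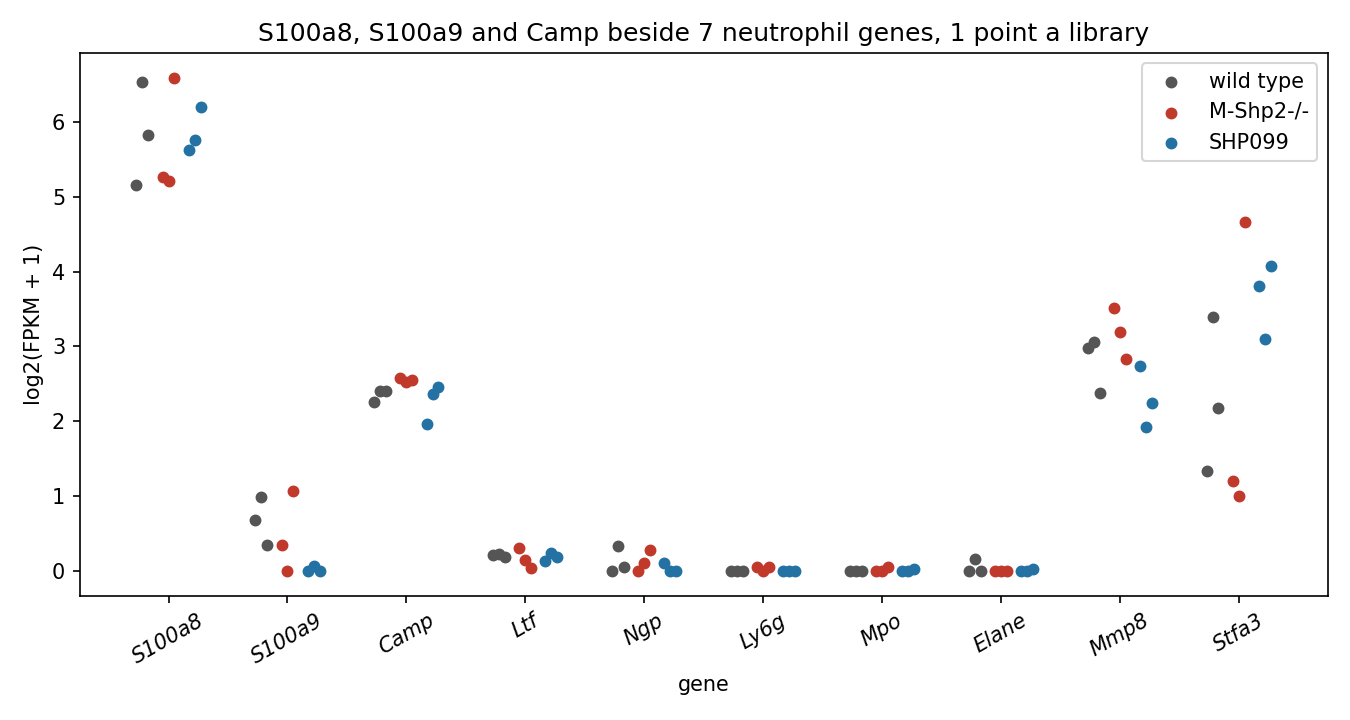
Level (log2 of FPKM + 1) of *S100a8*, *S100a9*, *Camp* and 7 neutrophil genes, with 1 point a library and colors for the groups. *S100a8* is high while *S100a9*, *Ltf*, *Ngp*, *Ly6g*, *Mpo* and *Elane* stay near 0, and *Mmp8* and *Stfa3* are detected.

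*Camp* encodes the precursor of the cathelicidin peptide. Its FPKM was 3.78, 4.32 and 4.28 in wild-type, 4.95, 4.74 and 4.86 in M-*Shp2*-/- and 2.92, 4.17 and 4.51 in SHP099 libraries. Every M-*Shp2*-/- library lay above every other library, but the difference from wild type was small (log2 fold change 0.19, SE 0.13, limma adjusted p = 0.531). It was -0.0038 with quantile normalization. *Ltf* and *Ngp*, which neutrophils store in granules together with cathelicidin, were at most 0.238 and 0.257 FPKM.

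Among the tested S100 members, *S100a10* and *S100a11* differed most between SHP099 and wild type. *S100a10*, the partner of annexin A2, had FPKM values of 205, 246 and 172 in wild-type, 205, 187 and 152 in M-*Shp2*-/- and 144, 136 and 130 in SHP099 libraries. *S100a11*, which binds annexin A1, had values of 262, 329 and 202 in wild-type, 268, 264 and 233 in M-*Shp2*-/- and 177, 136 and 151 in SHP099 libraries. For both genes the SHP099 libraries lay below all other libraries, while M-*Shp2*-/- and wild type overlapped. *S100a10* fell in SHP099 against wild type (log2 fold change -0.59, SE 0.13, 95% interval -0.90 to -0.27, limma adjusted p = 0.0472). *S100a11* had a log2 fold change of -0.75 (SE 0.18, 95% interval -1.19 to -0.32), which missed the threshold of 0.05 (limma adjusted p = 0.0557).

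*S100a6* and *S100a4* belong to the same cluster on chromosome 3. *S100a6* ranged from 212 to 317 FPKM with a median of 254, and *S100a4*, linked to cell motility, from 3.04 to 7.15 with a median of 4.27. Per length, *S100a4* was therefore a minor transcript beside *S100a6*, and neither passed the test against wild type with all libraries. The log2 fold change of *S100a6* was 0.03 (SE 0.17) in M-*Shp2*-/- and -0.22 (SE 0.15) in SHP099, and that of *S100a4* was -0.14 (SE 0.28) and -0.04 (SE 0.28), with limma adjusted p of 0.408 to 0.943. For *S100a6* the M-*Shp2*-/- sign turned with median-of-ratios scaling (-0.13), and without wild-type replicate 3 the SHP099 value was -0.40 (SE 0.06, limma adjusted p = 0.0196), which passes 0.05 in 1 of 19 alternatives. Reads of *S100a4* cannot be separated with certainty from *Gm42674*, an overlapping gene on the same strand.

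By mean FPKM over the 9 libraries, the order was *Saa3* (4884), *Slpi* (350), *S100a6* (263), *S100a11* (225), *S100a10* (175), *S100a8* (58.3), *Lcn2* (47.0), *S100a4* (4.71), *Camp* (4.28) and *S100a9* (0.366). The ranges over libraries overlapped between neighbors in this order from *Slpi* to *S100a10*, from *S100a8* to *Lcn2* and from *S100a4* to *Camp*. Some neighbors changed places within a group. In the wild-type means *S100a6* (277) was above *Slpi* (274) and *Lcn2* (64.2) above *S100a8* (60.5). In the M-*Shp2*-/- means *Camp* (4.85) was above *S100a4* (4.35). Of 12 other S100 genes, 11 were in the table and 2 were tested, *S100a1* at 74.8 to 292 FPKM and *S100a13* at 32.6 to 45.2. *S100a16* was at most 1.75 FPKM, and 5 of the 11, *S100a2*, *S100a3*, *S100a5*, *S100a7a* and *S100z*, were listed at 0 in all libraries. Neither *S100a1* nor *S100a13* passed the test at an adjusted p of 0.05 in any comparison.

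*Lcn2*, the siderophore-binding member, had FPKM values of 56.0, 74.8 and 61.9 in wild-type, 38.6, 30.6 and 64.0 in M-*Shp2*-/- and 23.6, 29.6 and 44.0 in SHP099 libraries. The SHP099 libraries lay below all wild-type libraries, and 2 of the 3 M-*Shp2*-/- libraries did so too, with replicate 3 inside the wild-type range. *Lcn2* fell in SHP099 (log2 fold change -1.001, SE 0.22, 95% interval -1.53 to -0.48, limma adjusted p = 0.0442). In M-*Shp2*-/- the log2 fold change was -0.58 (SE 0.27, limma adjusted p = 0.478), and -0.87 (SE 0.16, adjusted p = 0.207) without replicate 3. Compared directly, M-*Shp2*-/- against SHP099 gave 0.42 (SE 0.31, limma adjusted p = 0.599), and no difference between the conditions was shown for *Lcn2*.

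The calls for *S100a10* and *Lcn2* were close to the threshold. Over 19 alternatives, the adjusted p of *S100a10* ran from 0.0149 to 0.203 and that of *Lcn2* from 0.0378 to 0.211, each at most 0.05 in 8, while both log2 fold changes stayed below 0. That of *S100a11* ran from 0.012 to 0.213 and was at most 0.05 in 5. Single libraries ended calls. Without wild-type replicate 1, wild-type replicate 2, SHP099 replicate 1 or SHP099 replicate 2, the adjusted p of *S100a10* was 0.102, 0.0777, 0.134 and 0.181, and that of *Lcn2* was 0.0809, 0.0935, 0.13 and 0.179. Without SHP099 replicate 3, *S100a10* had 0.128, and without wild-type replicate 3, *Lcn2* had 0.0603 and *S100a11* had 0.0178.

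*Slpi*, an inhibitor of neutrophil elastase, had FPKM values of 192, 498 and 132 in wild-type, 265, 132 and 632 in M-*Shp2*-/- and 501, 338 and 456 in SHP099 libraries. *Saa3*, the most abundant member, had values of 2208, 6675 and 5242 in wild-type, 1923, 1187 and 6931 in M-*Shp2*-/- and 4442, 6720 and 8626 in SHP099 libraries. Both genes varied widely inside the wild-type and M-*Shp2*-/- groups, by 3.78 and 4.77 times for *Slpi* and by 3.02 and 5.84 times for *Saa3* between the highest and lowest library, so that all groups overlapped. *Saa3* took 0.129% to 0.934% of all reads of a library. Reads of *Slpi* may be shared with *Mir7678*, which overlaps it on the same strand.

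Against wild type, the log2 fold change of *Slpi* was 0.27 (SE 0.67) in M-*Shp2*-/- and 0.87 (SE 0.45) in SHP099, with limma adjusted p of 0.848 and 0.268. That of *Saa3* was -0.76 (SE 0.70) and 0.58 (SE 0.43), with limma adjusted p of 0.616 and 0.441. These values depended on single libraries. For *Saa3* in M-*Shp2*-/- the log2 fold change was -1.49 (SE 0.49, limma adjusted p = 0.23) without M-*Shp2*-/- replicate 3 and -0.22 (SE 0.68, limma adjusted p = 0.921) without replicate 2. For *Saa3* in SHP099 it was 0.11 (SE 0.30, limma adjusted p = 0.843) without wild-type replicate 1 and 0.90 (SE 0.41, limma adjusted p = 0.239) without wild-type replicate 2. Without wild-type replicate 2, *Slpi* in SHP099 had 1.42 (limma adjusted p = 0.032, against 0.032 to 0.551 over 19 alternatives).

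Fibroblast genes were compared with these members inside the groups. In each of the 3 groups, the library with the highest fibroblast gene level, wild-type replicate 2, M-*Shp2*-/- replicate 3 and SHP099 replicate 1, was also the one with the highest *Slpi*. The summed FPKM of 6 mesothelial genes was highest in these libraries too, at 9.31, 13.2 and 8.95. *S100a8* and *Saa3* were highest in the same wild-type and M-*Shp2*-/- libraries, but in SHP099 replicate 3. Over SHP099 replicates 1, 2 and 3 the fibroblast sum decreased while *S100a8* and *Saa3* increased, and wild-type replicate 1 had a higher fibroblast sum than replicate 3 (63.8 and 39.8) but less *Saa3* (2208 and 5242). All 6 fibroblast genes were detected in at least 1 library, *Lum* was at most 0.251 FPKM, and *Col1a1* ranged from 10.0 to 206. With the fibroblast level as a covariate, chosen after seeing the data, the log2 fold change in M-*Shp2*-/- went from 0.27 to -0.18 for *Slpi* (limma adjusted p = 0.487), from -0.14 to -0.42 for *S100a8* (limma adjusted p = 0.51) and from -0.76 to -1.15 for *Saa3* (limma adjusted p = 0.452). In SHP099 it went from 0.87 to 0.54 for *Slpi* (limma adjusted p = 0.219), from 0.03 to -0.085 for *S100a8* (limma adjusted p = 0.91) and from 0.58 to 0.54 for *Saa3* (limma adjusted p = 0.516). Leaving out the library with most fibroblast RNA in each group moved the SHP099 values the other way. *Slpi* then had 1.30, *S100a8* 0.49 and *Saa3* 1.16, with limma adjusted p of 0.0759, 0.428 and 0.25. In M-*Shp2*-/- it gave 0.23 for *Slpi*, without the sign change, -0.25 for *S100a8* and -1.17 for *Saa3*. Their limma adjusted p was 0.693, 0.515 and 0.285. The part of fibroblast RNA in the level of each gene was not tested.

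**Figure D3:**
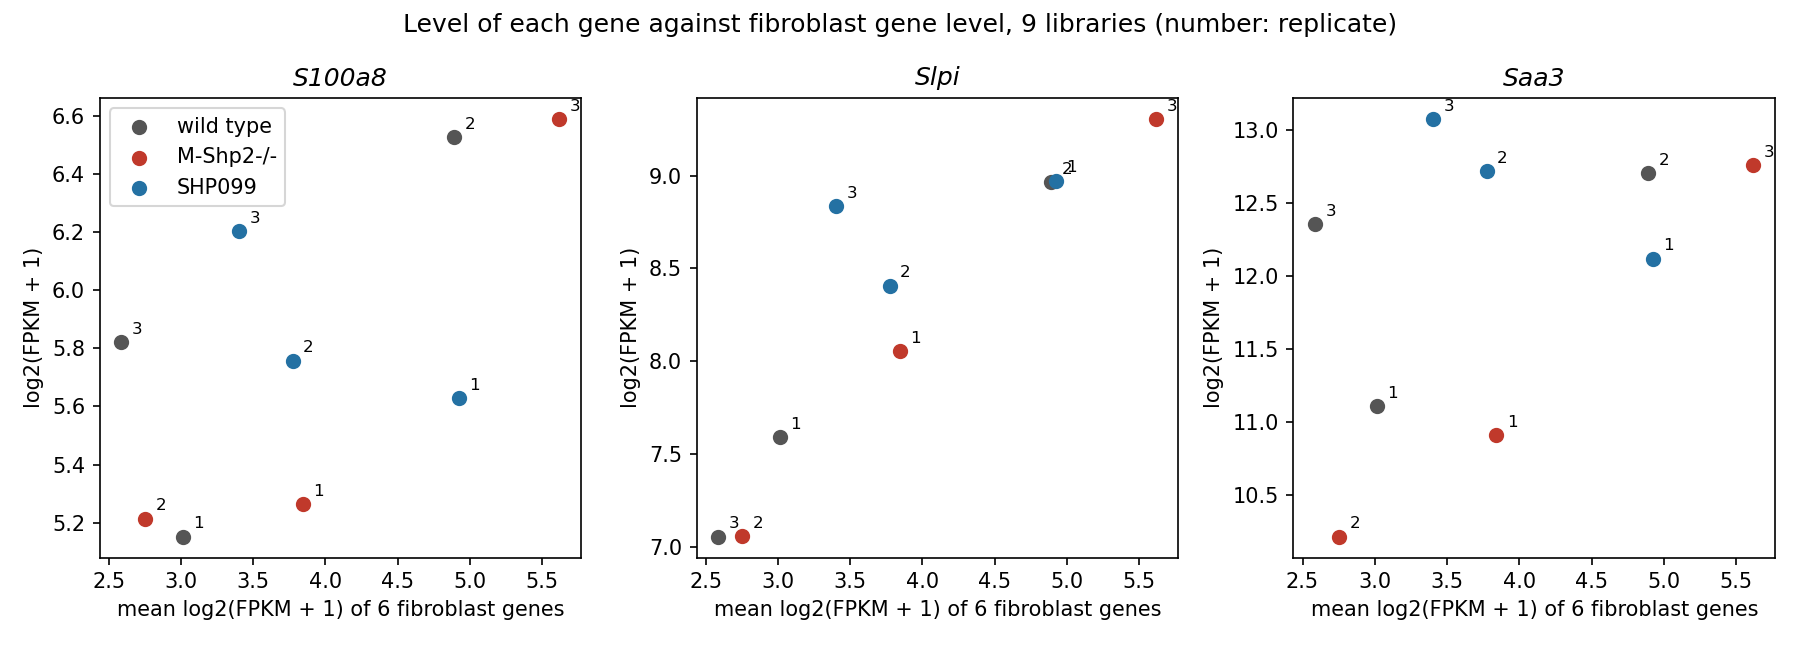
Level of *S100a8*, *Slpi* and *Saa3* (y axis, log2 of FPKM + 1) against the mean log2(FPKM + 1) of 6 fibroblast genes (x axis) in the 9 libraries, with the replicate number beside each point. The highest *Slpi* point of each group is also its point farthest to the right, whereas for *S100a8* and *Saa3* the highest SHP099 point is replicate 3.

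Counted over the members, M-*Shp2*-/- against wild type gave 0 of 9 past the stricter thresholds, an adjusted p no higher than 0.005 with a log2 fold change of 1 or more in size, where limma called 0.00873% of all 11450 genes tested. At an adjusted p of at most 0.05 the counts were 0 members and 0.0873% of all genes, 0 members and 10.5% of all genes had an unadjusted p under 0.05, and voom on recovered reads called 0. The groups did not overlap for 1 member, *Camp*, against 19.1% of all genes. So few genes passed either threshold that 0 of 9 is the background count and says nothing of the members in particular.

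SHP099 against wild type gave 0 of 9 members at the stricter thresholds in limma, where 0.166% of all genes were called, and voom called 0. An unadjusted p under 0.05 was found for 3 of 9 members and 26.7% of all genes, so that this count was near the background. At an adjusted p of at most 0.05 it gave 2 members, *S100a10* and *Lcn2*, against 6.96% of all genes. Both were lower in SHP099, as were 2.41% of all genes. The groups did not overlap for 3 of the 9 members, *S100a10*, *S100a11* and *Lcn2*, and for 34.6% of all genes, which is near the background too. With 3 libraries in each group an exact permutation test has a smallest possible p of 0.1, and it gave 0.1 for each of these 3 genes. The median log2 fold change of all genes was 0.13 as deposited and 0 with median-of-ratios scaling (0.15 and 0.01 for M-*Shp2*-/-), and that of the 9 members was -0.09 and, for M-*Shp2*-/-, -0.14.

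Of the 797 genes at an adjusted p of at most 0.05 in SHP099, 521 were higher and 276 lower, whereas median-of-ratios scaling gave 200 higher and 375 lower and quantile normalization 344 and 356. *S100a10*, *S100a11* and *Lcn2* were lower under each scaling, with log2 fold changes of -0.73, -0.90 and -1.14 after median-of-ratios scaling. The adjusted p was then 0.0149, 0.0271 and 0.0524.

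**Figure D4:**
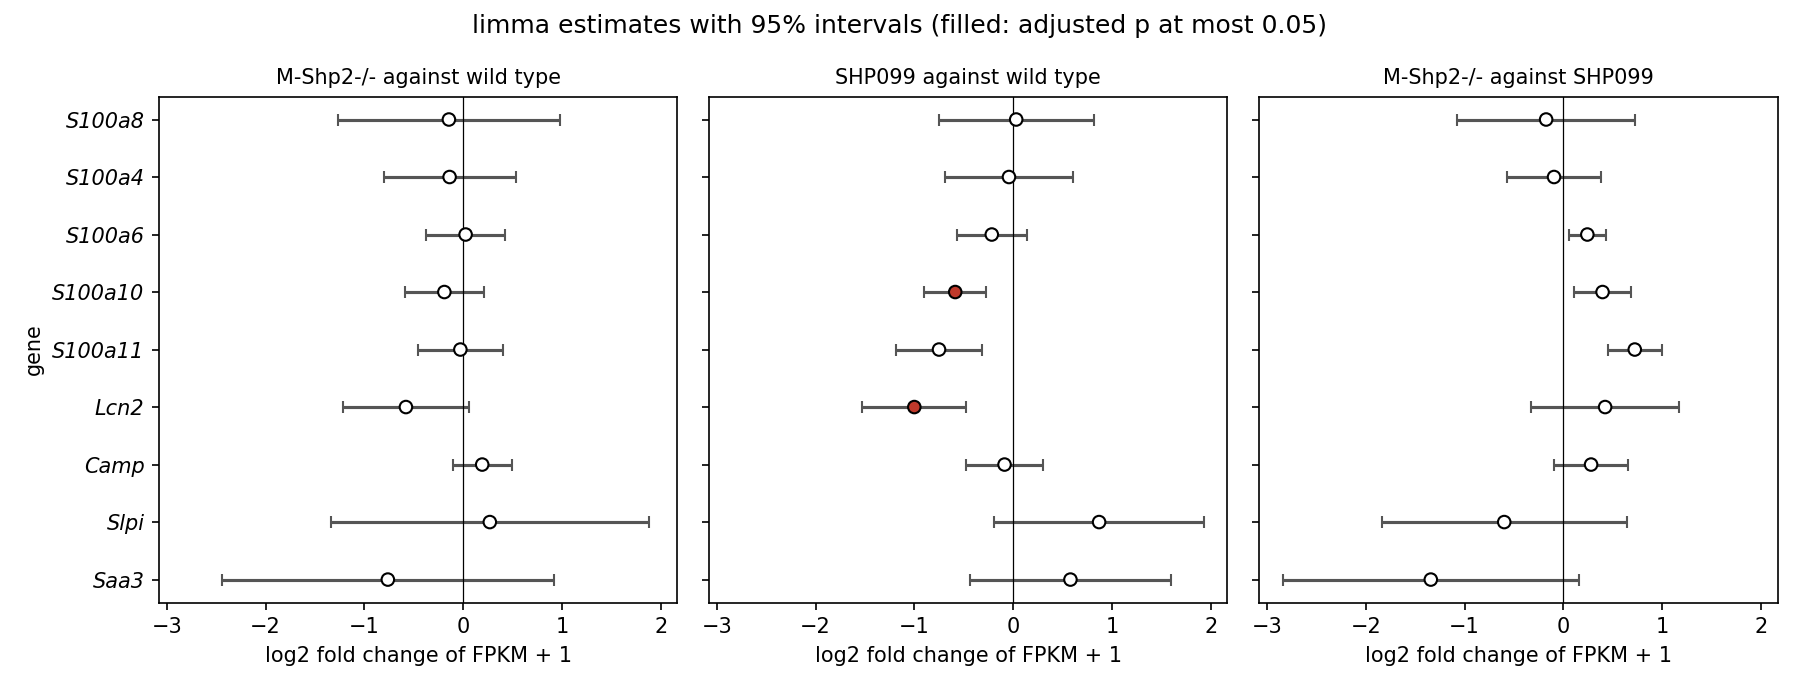
Log2 fold change of FPKM + 1 with its 95% interval (x axis) for the 9 tested members in the 3 comparisons, from limma. Filled points have an adjusted p of at most 0.05, which *S100a10* and *Lcn2* reach in SHP099 against wild type.

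M-*Shp2*-/- was also compared with SHP099 directly, since both comparisons above share the wild-type libraries. No member was called by limma at the stricter thresholds (0 of 9, against 0% of all genes) or at an adjusted p of at most 0.05 (0 of 9, against 0.0699%), and voom called 0. An unadjusted p under 0.05 was found for 3 of 9 members and 12.6% of all genes. The groups did not overlap for 4 of 9 members, *S100a6*, *S100a10*, *S100a11* and *Camp*, all higher in M-*Shp2*-/-, against 17.7% of all genes in either direction. The log2 fold changes were 0.24 (SE 0.08) for *S100a6*, 0.40 (SE 0.12) for *S100a10*, 0.72 (SE 0.11) for *S100a11* and -1.34 (SE 0.63) for *Saa3*. Their limma adjusted p was 0.335, 0.324, 0.138 and 0.427.

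This comparison rested on M-*Shp2*-/- replicate 3. Without it, 6 of 9 members had a limma adjusted p of at most 0.05, as did 19.9% of all genes. *S100a6* (0.31, adjusted p = 0.0139), *S100a10* (0.52, 0.00782) and *S100a11* (0.79, 0.00711) were then higher in M-*Shp2*-/-. *S100a8* (-0.63, limma adjusted p = 0.0446), *Slpi* (-1.18, 0.0406) and *Saa3* (-2.07, 0.00907) were lower. Over 19 alternatives, the adjusted p of *S100a11* ran from 0.00264 to 0.555 and that of *Saa3* from 0.00382 to 0.806.

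Related genes were read from lists chosen by function, with earlier results of these data known. Their counts beside those of all genes are descriptions and not independent results. Of 26 further antimicrobial and acute-phase genes, 17 were tested, and 1 passed an adjusted p of 0.05, *Chil3*, a chitinase-like lectin lower in SHP099 (log2 fold change -1.32, SE 0.25, limma adjusted p = 0.0322). This is no more than the 6.96% of all genes called in SHP099. *Lyz2*, *Cybb* and *Mpeg1* were the most abundant of this list. *Lyz2*, which encodes lysozyme M and carries the cre insertion, was at 7440 to 10228 FPKM in wild-type and 4743 to 5407 in M-*Shp2*-/- libraries without overlap (log2 fold change -0.76, SE 0.16, limma adjusted p = 0.388). Its reads may be shared with the near-identical *Lyz1*, which differed in the other direction. *Lyz1* was at 13.1 to 33.6 FPKM in wild-type and 110 to 311 in M-*Shp2*-/- libraries without overlap (3.27, SE 0.47, limma adjusted p = 0.184), and what this means for the *Lyz2* level was not tested. *Cybb*, the catalytic subunit of the phagocyte oxidase, was higher in all 3 SHP099 libraries than in all wild-type libraries (0.32, SE 0.10, limma adjusted p = 0.0903), and *Mpeg1* was at 1003 to 1275 FPKM throughout.

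Of 22 receptors and partners, 19 were tested, and 5 were lower and 0 higher in SHP099 than in wild type at an adjusted p of at most 0.05, against 2.41% of all genes lower and 6.96% in either direction. They were *Anxa1* (log2 fold change -1.18, SE 0.18, limma adjusted p = 0.0207) and *Anxa2* (-0.92, SE 0.14, limma adjusted p = 0.0209), the annexins bound by S100A11 and S100A10, the receptors *Tlr2* (-0.49, SE 0.10) and *Cd36* (-0.79, SE 0.18), and the scaffold *Ahnak* (-0.54, SE 0.11). The annexins and their S100 partners thus had lower values in the same SHP099 libraries. *Anxa2* was 483, 468 and 366 FPKM in wild-type, 384, 406 and 286 in M-*Shp2*-/- and 265, 232 and 200 in SHP099 libraries. In M-*Shp2*-/- 0 of the 19 passed, against 0.0873% of all genes. Since earlier results were known when this list was chosen, its counts describe these data only. *Tlr4*, a receptor of calprotectin, was at 15.6 to 29.1 FPKM, and *Ager*, the receptor RAGE, at 0.169 to 0.622. *Grn* and *Cd14*, the most abundant of the list, did not pass.

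Of 20 transcription factors and inducers, 19 were tested, with 3 lower in M-*Shp2*-/- (*Il6*, *Il1a* and *Il1b*) and 5 lower in SHP099 (*Il1b*, *Il6*, *Nfkb2*, *Il1a* and *Osm*), and 0 higher in either, by the same threshold of 0.05. Of all genes, 0.0873% passed in M-*Shp2*-/- and 6.96% in SHP099, and 2.41% were lower in SHP099. The study itself reported *Il6*, *Il1a* and *Il1b* as decreased in both conditions. With such results known when the list was chosen, its counts are no independent result. In M-*Shp2*-/- the log2 fold change was -2.17 (SE 0.09, limma adjusted p = 0.00117) for *Il6* and -2.48 (SE 0.16, limma adjusted p = 0.00781) for *Il1b*. In SHP099 it was -2.93 (SE 0.37, limma adjusted p = 0.0129) and -4.25 (SE 0.46, limma adjusted p = 0.00846). *Tnf* and *Spi1*, also abundant, did not pass in either comparison.

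Likeness was described by the Pearson correlation of log2 values over the 9 libraries, which share their 3 groups and, for the members, the differences between replicates. The 5 genes most like *S100a8* were *Pitpnc1* (0.96), *Itgb8* (0.956), *Lrg1* (0.938), *Ascc3* (0.924) and *Ifrd1* (0.924). For *Lcn2* they were *Penk* (0.962), *Nabp1* (0.941), *Dgat2* (0.931), *Slc7a2* (0.928) and *Cyfip1* (0.923). Those of *Slpi* were *Mir7678* (0.987), which it overlaps, *Bmpr1a* (0.986), *Spire1* (0.98), *Nr1d1* (0.975) and *Dbf4* (0.962), and those of *Saa3* were *Sash1* (0.97), *Rnaset2b* (0.97), *Gpd2* (0.967), *Cd38* (0.966) and *Chic2* (0.965). None of these 20 genes is a member.

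Genes of further cell types were summed, and not every list is given here. The summed FPKM was at most 13.2 for 6 mesothelial genes and 1.77 for 4 dendritic cell genes, and that of 5 resident macrophage genes was 5.38 to 12.2. For 4 T cell genes it was 0.668, 1.75 and 4.01 in wild-type, 0.324, 0.288 and 2.36 in M-*Shp2*-/- and 5.40, 3.91 and 3.56 in SHP099 libraries. *Cd3e* and *Cd3g*, below the level for testing, were higher in all SHP099 than in all wild-type libraries. The monocyte, mast cell and eosinophil sums below were among those lower in all SHP099 than in all wild-type libraries, as was the sum of the 18 neutrophil genes. The sum of the 12 defining neutrophil genes was not lower, at 18.9, 10.6 and 19.7 in SHP099 and 8.62, 17.6 and 8.46 in wild-type libraries. The sum of 5 monocyte genes, led by *Chil3*, was 112, 232 and 154 in wild-type, 56.2, 95.8 and 143 in M-*Shp2*-/- and 65.6, 67.0 and 68.2 in SHP099 libraries. Most of it was *Chil3* (55.3 to 57.5 in SHP099). In SHP099, 3 of the 4 tested genes of the list had a log2 fold change below 0. They were *Chil3*, *Ly6c2* (-0.75, limma adjusted p = 0.444) and *Plac8* (-0.81, limma adjusted p = 0.207). *F13a1* had a log2 fold change of 0.07 (SE 0.21, limma adjusted p = 0.857). *Ccr2*, below the level for testing, was at 0.155 to 0.506 in wild-type and 0.671 to 1.56 in SHP099 libraries. The sum of 4 mast cell genes, led by *Tpsb2*, was 1.59, 3.79 and 4.82, then 1.36, 0.252 and 1.43, then 0.320, 0.279 and 0.614 in the order of groups used for monocytes. That of 4 eosinophil genes, led by *Siglecf*, was 0.395, 0.383 and 0.930, then 0.727, 0.537 and 0.280, then 0.0368, 0.0205 and 0.0186. *S100a10*, *S100a11* and *Lcn2* were lower in the same SHP099 libraries. The sum of 8 macrophage genes, led by *Lyz2*, was 10420 to 13421 FPKM in wild-type, 7468 to 8412 in M-*Shp2*-/- and 11778 to 13736 in SHP099 libraries. Most of it was *Lyz2*, which carries the cre insertion, at 7440 to 10228 in wild-type and 4743 to 5407 in M-*Shp2*-/- libraries. In M-*Shp2*-/- against wild type, 6 of the 8 genes had a log2 fold change below 0. Of the 8, 0 had a limma adjusted p of at most 0.05 there. Among single markers, *Csf1r* was higher in SHP099 than in wild type (log2 fold change 1.38, SE 0.22, limma adjusted p = 0.0222) and *Mmp9* lower (-1.38, SE 0.27, limma adjusted p = 0.0329). The part of these cells in the levels of the members was not tested.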

How the data were processed

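The authors aligned the reads with HISAT2 2.0.4, counted them per gene with HTSeq 0.9.1 and deposited FPKM for 54059 genes, per the submitters' processing notes and the labels. The tool that made FPKM and the strand of counting are not given in the sources used here. Genes were named by GENCODE M21 (GRCm38). Multiplied by mean transcript length, FPKM gave whole multiples of 1 step, within 0.05, in 96.3% to 96.7% of values of up to 50 reads (10% by chance). The step gives a depth of 39843254 to 50981216 reads a library. Recovered reads summed to 98.4% to 98.7% of it, and intervals from them cover counting error only. Chi-square per degree of freedom between replicates was 23.8 to 271, far above counting error.

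log2(FPKM + 1) was tested for 11450 genes, those whose FPKM averaged 1 or more, with limma 3.58.1 (trended eBayes, two-sided, R 4.3.3) on the 6 libraries of each comparison, with Benjamini-Hochberg adjustment. Fold changes are on this scale, which understates those of low genes. A script tested the fit on simulated data. Python 3.11.15, pandas 2.3.3, scipy 1.17.1 and matplotlib 3.10.9 made tables and plots.

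The members and lists were chosen with earlier results of these data known. Named genes are the members, *Ptpn11*, *Il6*, *Il1b*, *Tnf*, the 3 most abundant genes of each list, every list gene at an adjusted p of at most 0.05 against wild type (at most 5), and the 5 genes most like *S100a8*, *Lcn2*, *Slpi* and *Saa3*. *Tlr4*, *Ager*, *Lyz1*, *Gm42674* and single cell type markers were named after their values were seen. Alternatives were pseudocounts of 0.1 and 5, no filter or a mean FPKM of 5, median-of-ratios, equal sum and quantile scaling, eBayes without trend, all 9 libraries in 1 fit, a replicate block, voom on recovered reads and each library left out in turn. Leaving out the library with most fibroblast RNA in each group, and the fibroblast level as a covariate, were chosen after seeing the data.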

Additional observations from a re-analysis of the deposited data

Results flagged for a closer look

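Groups of 3 libraries were not tested for single outlying libraries. No member met the criteria for a difference between the effects of M-*Shp2*-/- and SHP099 with all libraries included.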

How the results depend on the processing

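Of 507 log2 fold changes of members under an alternative, 434 kept their direction and their side of an adjusted p of 0.05, 22 lost and 18 gained that threshold, and 33 changed sign. The sign changed in 13 of 27 member comparisons, none of which had passed the threshold. The causes were not tested. Groups of 3 libraries and 0 to 26 *S100a9* reads limit what could be detected.

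The replicate numbers were not treated as pairs in the main fits. Correlations of deviations between same-numbered libraries ran from -0.431 to 0.492, and not every library correlated best with its own number. With 3 libraries in each group, these values cannot decide whether same-numbered libraries were paired. With the replicate block, 0 genes were called at the stricter thresholds in M-*Shp2*-/- (1 without it) and 0 in SHP099 (19 without it), and 1 member had an adjusted p of at most 0.05 in SHP099 (2 without it). In M-*Shp2*-/-, the stricter thresholds called 0 genes with no filter, with eBayes without trend, without the library with most fibroblast RNA in each group and with the fibroblast covariate, 3 with median-of-ratios scaling and 2 with all 9 libraries. Leaving out single libraries gave 0 to 0.

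In SHP099 they called 0 genes with no filter, 4 with eBayes without trend, 9 with voom and 1 without the libraries with most fibroblast RNA, and 0 to 26 with single libraries left out. Members at an adjusted p of at most 0.05 were 0 with no filter, 0 with eBayes without trend, 0 without the libraries with most fibroblast RNA, 1 with equal sum scaling and 1 with quantile normalization, and 0 to 3 with single libraries left out. In M-*Shp2*-/- against SHP099, all 9 libraries called 1 gene, and without the libraries with most fibroblast RNA there were 202 genes, 1 member (*Saa3*) and 5 members at 0.05. Single libraries left out gave 0 to 159 genes and 0 to 6 members at 0.05, the highest without M-*Shp2*-/- replicate 3.

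Sign changes in M-*Shp2*-/- against wild type were *S100a6* at -0.13 with median-of-ratios scaling, *Camp* at -0.0038 with quantile normalization, *Slpi* at -0.18 with the fibroblast covariate, and, without the libraries with most fibroblast RNA, *S100a4* at 0.12, *S100a10* at 0.06 and *S100a11* at 0.21. In SHP099, *S100a8* was at -0.11 with median-of-ratios scaling, -0.044 with quantile normalization and -0.085 with the fibroblast covariate, and *S100a4* at 0.31 and *Camp* at 0.089 without the libraries with most fibroblast RNA. *Lcn2* was then at -0.067 in M-*Shp2*-/- against SHP099.

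With single libraries left out, log2 fold changes in M-*Shp2*-/- against wild type ran from -0.60 to 0.20 for *S100a8*, -0.40 to 0.11 for *S100a4*, -0.16 to 0.13 for *S100a6*, -0.21 to 0.14 for *S100a11*, -0.87 to -0.35 for *Lcn2*, -0.31 to 0.82 for *Slpi* and -1.49 to -0.22 for *Saa3*. In SHP099 against wild type they ran from -0.31 to 0.38 for *S100a8*, -0.31 to 0.20 for *S100a4*, -0.40 to -0.11 for *S100a6*, -0.19 to 0.061 for *Camp*, 0.46 to 1.42 for *Slpi* and 0.11 to 0.90 for *Saa3*. In M-*Shp2*-/- against SHP099 they ran from -0.63 to 0.064 for *S100a8*, -0.23 to 0.069 for *S100a4*, 0.13 to 0.66 for *Lcn2*, 0.13 to 0.38 for *Camp*, -1.18 to -0.058 for *Slpi* and -2.07 to -0.80 for *Saa3*.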
